A study of Mus musculus with 2 samples.

Results

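The replication-dependent histone genes are the clustered genes that supply new chromatin with its core histones H2A, H2B, H3 and H4 and its linker histone H1. Members were all protein-coding genes in the gene tables of both libraries whose symbol begins with Hist1h, Hist2h, Hist3h or Hist4h, which gave 64 of the 43346 Ensembl genes measured. The tables came from total RNA (longer than 200 nt) of the spleens of 2 newborn B6NCrl mice, 0 days after birth and from the same pregnancy, with 1 library per pup. Pup 2 gave replicate 1 and pup 1 gave replicate 2. No allele or agent is named for either pup, and both samples carry 1 donor identifier. The libraries form 1 group, P0 spleen (n = 2), so there is no contrast between conditions. Levels are given per library and as mean ± SD (n = 2), and ratios between the libraries describe these 2 pups, with no replicate check and no test.

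Cells make these mRNAs during S phase, when new DNA has to be wrapped into nucleosomes, and remove them when replication ends. Unlike nearly all other mRNAs of animal cells they carry no poly(A) tail: their 3′ end is a short conserved stem-loop, bound by the stem-loop binding protein SLBP and cut just downstream with the help of the U7 small nuclear RNP. The newborn mouse spleen is a site of blood formation, with many dividing erythroid and myeloid precursors. The genes have no introns as a rule, lie close together, and encode nearly the same proteins many times over, so that short reads often match several of them.

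By histone type the set held 6 H1, 18 H2A, 15 H2B, 12 H3 and 13 H4 genes. By genomic group, 52 lay in Hist1 on chromosome 13, 9 in Hist2 on chromosome 3, 2 in Hist3 on chromosome 11 and 1, Hist4h4, on chromosome 6. Coordinates are on mm10 (GRCm38) and are those of the GENCODE M21 annotation. Hist1h2bh, Hist1h2bm and Hist2h2bb fit the rule in M21 but are not in the tables and were not analysed here. The repetition was plainest in H4: the 13 genes had 12 distinct coding sequences and 1 protein of 103 residues. The 12 H3 genes encoded 2 proteins, known as H3.2 (8 genes) and H3.1 (4 genes). The 18 H2A genes encoded 9 proteins, of which the commonest was shared by 9 genes, and the 15 H2B genes also encoded 9. These counts take, for each gene, the coding transcript with the highest TPM summed over the libraries. For Hist1h2bq and Hist1h2br this has a coding sequence of 402 nt, although each also has a transcript with 378 nt. Each of the 6 H1 genes encoded a protein of its own.

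The stem-loop is the element these mRNAs share, and its variants are shown because those of H4 genes differ from those of the other types. A search of the M21 transcripts for the 16-base pattern found it in 44 of the 64 members, in 8 variants. In the sequences below, read 5′ to 3′ in the transcript with T for U, capitals mark the stem and small letters the loop of 4 bases.
Hist1h2ap, 24 members: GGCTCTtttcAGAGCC
Hist1h4d, 7 members: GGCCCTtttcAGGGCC
Hist1h2bk, 6 members: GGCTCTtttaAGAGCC
Hist2h4, 2 members: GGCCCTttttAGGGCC
Hist1h4b, 2 members: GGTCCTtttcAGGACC
Hist1h4a, 1 member: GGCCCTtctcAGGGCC
Hist1h3g, 1 member: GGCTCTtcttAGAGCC
Hist2h2ac, 1 member: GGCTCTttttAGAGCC
The gene before each count is an example. The first variant was shared by 3 H1, 10 H2A, 6 H2B and 5 H3 genes and by no H4 gene. The 12 H4 genes with a match used the variants shown for Hist1h4d, Hist2h4, Hist1h4b and Hist1h4a, which no other type used. The missing matches say only that the letters were not in the annotated model. In 14 of the 44 members whose models are the same in M4 and M21, the model ends at most 2 nt past the stop codon. Other models without a match are long: those of Hist1h2bc and Hist2h2be in M21 run 742 and 2192 nt past the stop codon. Both hold AATAAA, the letters of a poly(A) signal. Of 27 same-model transcripts with a stem-loop, 7 hold AATAAA after it.

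H2A and H2B genes often stand head to head, and the bases between such a pair serve both. The clipped promoter windows of the genes that led the H2A and H4 types, and of a near-identical copy of the first (Hist1h2ap, Hist1h4d and Hist1h2ao), with that of Hist1h2ae, are shown because these genes recur in the levels below. No value here ties a level to its promoter letters. They are from RefSeq (GRCm38.p6), cut back to bases that no member's model covers. Capitals mark, on either strand, CCAAT, which is a common promoter element, the core letters of the TATA box (TATAAA), and the octamer bound by Oct-1 and its relatives (ATTTGCAT).
Hist1h2ap, chr13:21833508-21833725, minus strand: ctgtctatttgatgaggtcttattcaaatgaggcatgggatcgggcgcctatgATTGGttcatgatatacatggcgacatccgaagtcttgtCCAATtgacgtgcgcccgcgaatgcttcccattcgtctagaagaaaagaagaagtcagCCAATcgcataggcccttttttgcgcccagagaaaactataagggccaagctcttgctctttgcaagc
Hist1h2ao, chr13:21810198-21810416, plus strand: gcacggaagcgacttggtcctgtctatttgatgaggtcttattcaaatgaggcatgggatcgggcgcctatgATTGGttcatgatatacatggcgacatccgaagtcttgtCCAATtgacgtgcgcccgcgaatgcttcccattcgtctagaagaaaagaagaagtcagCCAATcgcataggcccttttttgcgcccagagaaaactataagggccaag
Hist1h2ae, chr13:23571221-23571395, minus strand: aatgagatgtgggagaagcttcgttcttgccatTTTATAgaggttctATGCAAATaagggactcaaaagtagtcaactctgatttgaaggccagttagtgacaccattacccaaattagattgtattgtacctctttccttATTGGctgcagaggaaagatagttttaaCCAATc
Hist1h4d, chr13:23581318-23581597, plus strand: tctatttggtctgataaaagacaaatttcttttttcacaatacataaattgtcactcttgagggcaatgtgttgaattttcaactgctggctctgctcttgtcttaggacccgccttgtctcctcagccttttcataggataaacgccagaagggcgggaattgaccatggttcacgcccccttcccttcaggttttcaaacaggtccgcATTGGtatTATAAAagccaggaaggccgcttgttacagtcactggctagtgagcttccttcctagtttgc
The windows of Hist1h2ap and Hist1h2ao shared an unbroken run of 200 bases, while the longest run that Hist1h2ap shared with Hist1h2ae was 7 bases. Over the full windows (250 bases before to 50 after the start), which matched 59 of the 64 members, CCAAT on either strand was present in 18 of 18 H2A, 13 of 13 H2B, 10 of 10 H3 and 6 of 6 H1 genes and in 3 of 12 H4 genes. Among all 32544 windows of the RefSeq table it was present in 37.36%. ATTTGCAT on either strand was present in 7 of 18 H2A and 4 of 13 H2B genes and in no H1, H3 or H4 gene, against 1.751% of all windows. TATAAA, also on either strand, was present in 35 of the 59, against 13.57%. In the Hist1h2ae window shown, both lie on the opposite strand, and the overlapping window of Hist1h2bg holds both in forward form. The windows of head-to-head neighbours overlap and are not independent, and a match is a run of letters, not a measured binding site.

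Together the 64 genes held 11762.9 TPM in replicate 1 and 9404.2 TPM in replicate 2. TPM corrects for length and is a share of the total over all features, so this was 1.18% and 0.94% of the total. In estimated counts the members took 150743 of 33121431 reads on Ensembl genes in replicate 1 and 114208 of 32161713 in replicate 2. At a threshold of 1 TPM in both libraries 55 of 64 members were detected, beside 55.6% of the 21474 protein-coding genes. The 55 were 5 of 6 H1, 15 of 18 H2A, 12 of 15 H2B, 12 of 12 H3 and 11 of 13 H4 genes.

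**Figure D1:**
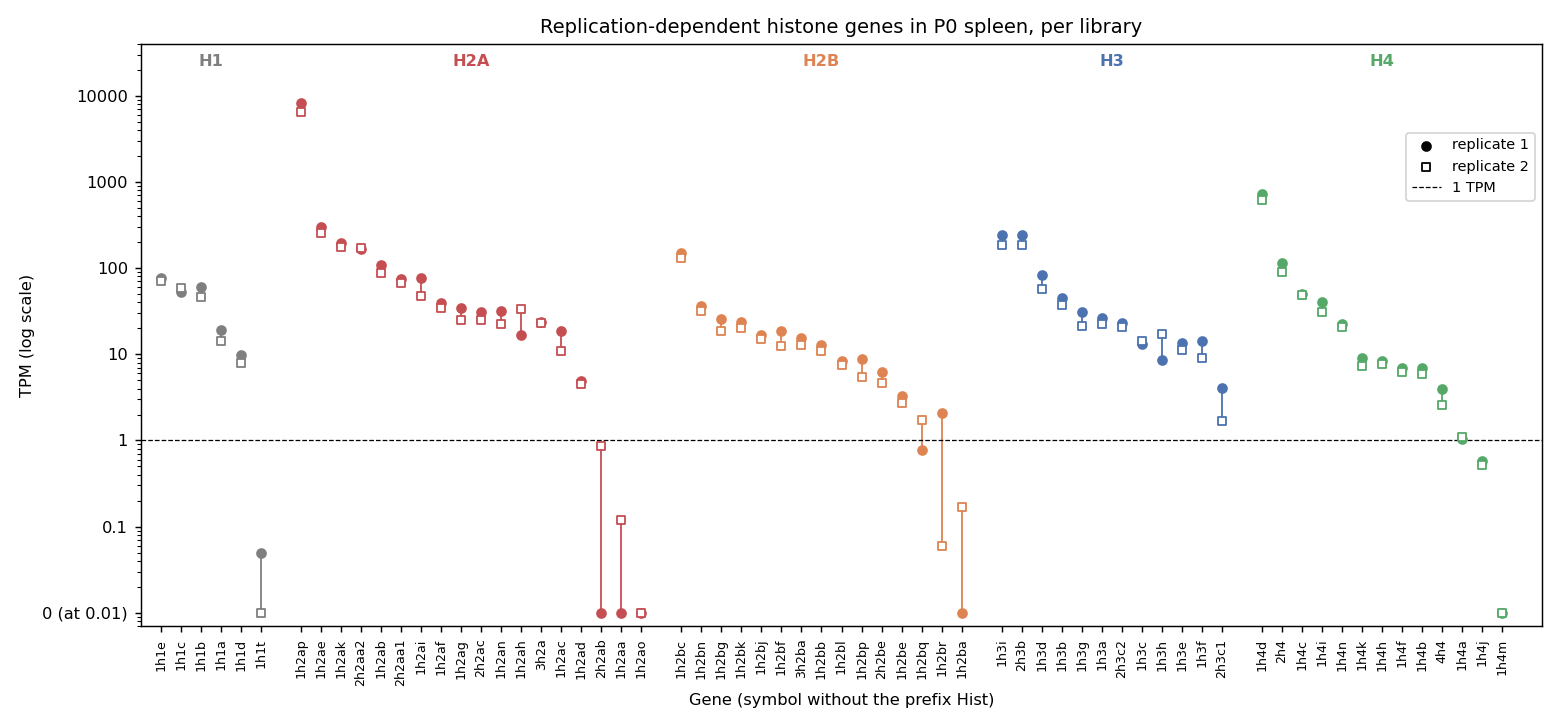
TPM on a log scale (vertical axis) of the 64 members, grouped by histone type and ordered by mean level within it (horizontal axis), with filled circles for replicate 1 and open squares for replicate 2. Hist1h2ap stands apart from all other members at 8364.78 and 6526.32 TPM, and 9 members miss 1 TPM in at least 1 library.

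Most of the histone signal was assigned to 1 H2A gene, Hist1h2ap. How reads were divided between it and its near-identical copy Hist1h2ao rests on the ends of their models, as given below. Hist1h2ap (ENSMUSG00000094777, chromosome 13, 21833026 to 21833507, minus strand), which encodes the commonest H2A protein, reached 8364.78 TPM in the first library and 6526.32 in the second, a mean of 7445.6 ± 1300.0. By mean TPM it had rank 6 among all protein-coding genes and held 70.25% ± 1.21 of the members' TPM. The next member, Hist1h4d (ENSMUSG00000061482, chromosome 13, 23581598 to 23582735), an H4 gene, stood at 717.71 and 614.49 TPM, so that Hist1h2ap was 11.2-fold above it. The level of Hist1h4d rests on a model of 393 nt in M4, against 1138 nt in M21, while the Hist1h2ap model is 482 nt in both. Both libraries gave the same order of these 2 genes, with no overlap of their values.

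The copy of this gene was empty in both tables. Hist1h2ao (ENSMUSG00000094248, chromosome 13, 21810465 to 21810944, plus strand) was listed at 0 counts in both libraries, although its coding sequence has 0 differences from that of Hist1h2ap. Of the 100-nt windows of its model, which is what a read of that length can match, 353 of 381 also occur in Hist1h2ap. The 30 windows that only Hist1h2ap holds are those that start at positions 1 to 30 of its model, which begins further upstream. The 28 windows that only Hist1h2ao holds start at positions 354 to 381 and end at positions 453 to 480, all past the end of its stem-loop at position 449. Mature histone mRNAs end a few bases after the stem-loop. The Hist1h2ap model itself ends 3 nt after its stem-loop. The posterior SD, the uncertainty of a count after shared reads are divided, was 100.84 and 84.36 counts on 100977.61 and 74325.80 for Hist1h2ap, and 13.30 and 18.38 on the 0 counts of Hist1h2ao. For Hist1h2ap this was small only relative to the count, at 0.107%, beside a model in which 30 of 383 windows were unique. In counts, only Hist2h2aa2 (110.64 and 89.3) and Hist2h2aa1 (109.02 and 87.01) had a larger posterior SD among the members. The sum of both copies does not rest on these end windows, while its division between them does.

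Hist1h2ao and Hist1h2ap lie in a repeated block of chromosome 13 in which 3 genes face 3 copies. On one side the order is Hist1h2bq, Hist1h2ao and Hist1h4m, and on the other Hist1h4n, Hist1h2ap and Hist1h2br, in the opposite orientation. In the H4 pair, too, 1 copy was empty: Hist1h4m (chromosome 13, 21811746 to 21812147) was listed at 0 counts in both libraries. Hist1h4n (21831767 to 21832196), which shares 267 of the 303 windows of Hist1h4m, had 236.82 and 204.42 counts. Unlike those of Hist1h2ao, the 36 windows that only Hist1h4m holds lie ahead of its stem-loop. They start at positions 1 to 36 of its model. In the H2B pair the estimated counts changed order between libraries. Hist1h2br had 84.80 counts in replicate 1 and 3.97 in replicate 2, with posterior SDs of 19.93 and 16.41. Hist1h2bq had 49.99 and 102.66, with posterior SDs of 17.83 and 16.25. The part of read division and of a difference between the pups in this was not tested. The 2 H2B copies share 1911 of the 2015 windows of Hist1h2bq. Their sum, 134.79 and 106.63 counts, was 1.31-fold higher in replicate 1 after scaling (interval 1.01 to 1.71, from the counts alone).

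Because Hist1h2ap dominated, the make-up by type depended on it. H2A held 80.24% ± 0.589 of the members' TPM, H4 8.635% ± 0.387, H3 6.274% ± 0.0561, H2B 2.875% ± 0.0909 and H1 1.971% ± 0.168. Without Hist1h2ap, an alternative chosen after seeing the data, H2A held 33.57% ± 0.726, H4 29.03% ± 0.118, H3 21.11% ± 1.05, H2B 9.667% ± 0.0884 and H1 6.622% ± 0.294. In TPM the order H2A, H4, H3, H2B, H1 was the same in both libraries with and without Hist1h2ap. Each step exceeded the spread between the libraries. In shares of the members' counts this order did not hold throughout. H1 and H2B held 3.803% and 3.839% of counts in replicate 1, and 4.504% and 4.007% in replicate 2. H2A without Hist1h2ap and H4 held 9.354% and 9.565% in replicate 1, and 10.3% and 9.818% in replicate 2. The H2B sum covers measured genes only: 3 further H2B genes (Hist1h2bh, Hist1h2bm and Hist2h2bb) were not analysed here, so the sum is incomplete.

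**Figure D2:**
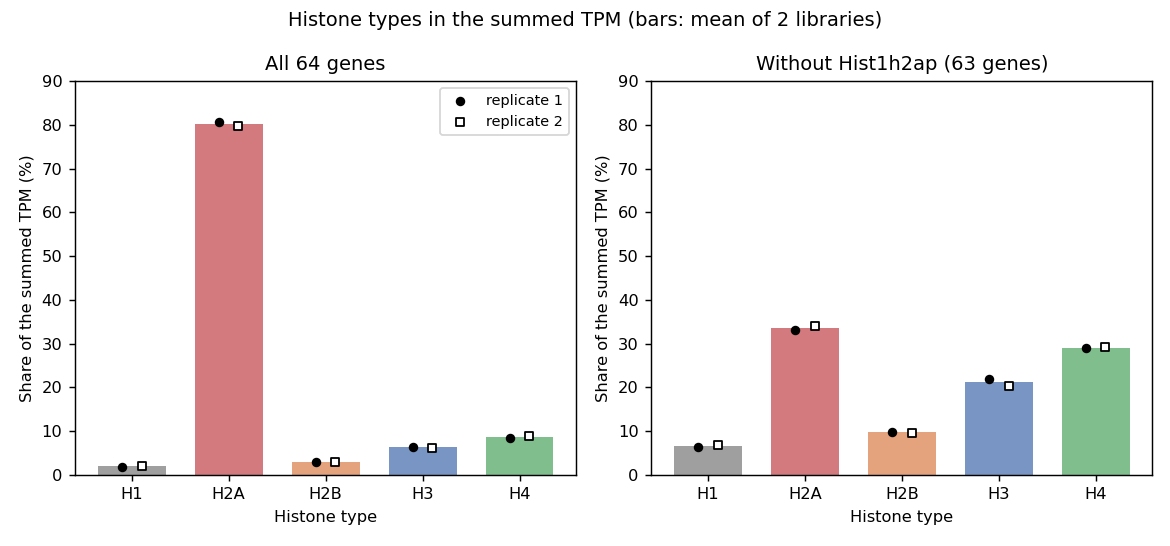
Share of the members' summed TPM (vertical axis, percent) taken by each histone type (horizontal axis), for all 64 genes and without Hist1h2ap, with bars for the mean of 2 libraries and points for each library. H2A falls from 80.24% to 33.57% when 1 gene is left out, and the order of the types in TPM stays.

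Among the other H2A genes, Hist1h2ae (chromosome 13, 23570517 to 23571220) stood at 304.06 and 255.76 TPM, Hist1h2ak at 194.53 and 175.61, and Hist1h2ab at 107.70 and 87.13. In Hist2, Hist2h2aa2 stood at 166.10 and 169.15 TPM and Hist2h2aa1 at 74.05 and 67.33. None of the 429 windows of Hist2h2aa2 was its own, so this pair, too, is safest as a sum. All 429 also occur in genes outside the members, the transcript Gm20634 among those genes. The summed counts of the pair were 3382.65 and 3132.71. Hist2h2ac stood at 30.97 and 24.87 TPM and Hist3h2a, in a group of its own on chromosome 11 (58954685 to 58956830), at 23.95 and 22.84. The 9 genes for the commonest H2A protein together held 93.61% ± 0.914 of H2A TPM. Their common protein was thus carried at 7960.8 ± 1388.8 TPM, of which Hist1h2ap was 7445.6.

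Among the measured genes H2B had the lowest summed TPM of the core types, with 3 H2B genes not analysed here, and 1 gene led it. Hist1h2bc (chromosome 13, 23684199 to 23692908) stood at 151.18 and 132.39 TPM, above Hist1h2bn at 36.84 and 31.83. Hist2h2be stood at 6.24 and 4.63 TPM and Hist3h2ba at 15.26 and 12.68. The 4 genes for the commonest H2B protein held 24.27% ± 0.0898 of H2B TPM.

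The leading H3 genes of Hist1 and Hist2 stood at about the same level, while the 9 Hist1 genes together held 426.9 ± 69.2 TPM and the 3 Hist2 genes 237.6 ± 41.4. Hist1h3i (chromosome 13, 21782960 to 21783370), an H3.1 gene, stood at 240.06 and 187.55 TPM, and Hist2h3b (chromosome 3, 96268654 to 96269141), an H3.2 gene, at 239.87 and 185.86. The mean levels of 213.8 ± 37.1 and 212.9 ± 38.2 did not differ beyond their spread. Hist2h3c2 stood at 22.90 and 20.76 TPM and Hist2h3c1 at 4.03 and 1.70. The 8 H3.2 genes held 58.22% ± 0.79 of H3 TPM and the 4 H3.1 genes 41.78% ± 0.79.

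All H4 genes encode 1 protein, and their TPM differed widely between genes. After Hist1h4d came Hist2h4 (chromosome 3, 96261682 to 96263311) at 116.03 and 91.05 TPM and Hist1h4c at 49.65 and 48.59. Hist2h4 had 5599 and 4145 counts with a posterior SD of 0, meaning that no read was divided. Hist1h4d had 6650.68 and 5372.02 counts, a smaller lead than in TPM. The M4 models are 393 nt for Hist1h4d and 1630 nt for Hist2h4, which runs 1257 nt past its stem-loop. Hist4h4, the sole member on chromosome 6 (136801553 to 136804415), stood at 3.98 and 2.58 TPM, also with a posterior SD of 0.

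The linker histone genes could mostly be read singly. Hist1h1c, Hist1h1d and Hist1h1e share some windows, and Hist1h1e shares 397 of the 1831 windows of its M21 model with Hist1h2be. Their posterior SDs were small, at 0.37%, 2.66% and 0.625% of the count. Hist1h1e was highest in TPM, at 76.67 and 70.64, a mean of 73.66 ± 4.26. In counts Hist1h1c was higher, at 2426.91 and 2524.86 against 1568.32 and 1363.17, and the M4 models are 748 nt for Hist1h1e (1930 nt in M21) and 1560 nt for Hist1h1c. Hist1h1c stood at 52.70 and 58.12 and Hist1h1b at 59.81 and 45.75, and these 2 did not differ beyond their spread. Hist1h1a stood at 18.93 and 14.12 TPM and Hist1h1d at 9.78 and 7.92. Hist1h1t, the testis linker histone, had 1 count in replicate 1 and 0 in replicate 2.

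The 9 members that missed 1 TPM in at least 1 library fell into kinds that differ in what they say. Hist1h2aa and Hist1h2ba, the testis-type H2A and H2B pair at the far end of Hist1 (chromosome 13, 23933773 to 23934851), had 0 counts in replicate 1 and 1.00 and 1.47 in replicate 2. With 0 counts a level of up to 3 counts, or 0.0906 CPM (count relative to the library total) in replicate 1, remains possible. Hist2h2ab had 0 and 8.97 counts, with 340 of 345 windows its own. Hist1h4j, just below the threshold, stood at 0.58 and 0.52 TPM, and Hist1h4a, just above it, at 1.03 and 1.11. The other four, besides Hist1h1t, were the copies Hist1h2ao, Hist1h4m, Hist1h2bq and Hist1h2br of the repeated block.

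The levels were patchy along the clusters. Hist1 fell into 4 blocks separated by more than 100 kb. The block from 21715763 to 21837530, with 17 genes, held 9065.3 and 7097.0 TPM, but 635.6 TPM on average without Hist1h2ap. The block from 23531050 to 23764406, with 28 genes of all 5 types, held 1861.7 and 1577.8 TPM, and 27 of its genes were detected. A block of 5 genes from 22035164 to 22043676 held 132.5 and 124.8 TPM. The testis pair formed the last block, at 0.145 TPM on average. Hist2 held 660.2 and 566.2 TPM over 49.28 kb, Hist3 39.21 and 35.52, and Hist4 3.98 and 2.58.

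There were 12 head-to-head pairs of an H2A and an H2B gene with at most 1000 nt between their starts. H2A was the higher of the 2 in both libraries in 7 pairs and H2B in 3. The reads of Hist1h2ap and Hist1h2ao, and those of Hist1h2br and Hist1h2bq, were divided between near-identical copies. Of the other genes in the tally, Hist1h2ai, Hist1h2bl, Hist1h2an, Hist1h2bp, Hist1h2ag and Hist1h2ad had posterior SDs of 13.0% to 39.3% of the count, as the mean of both libraries. Of the other two pairs, Hist1h2ah and Hist1h2bk changed order between the libraries, and the testis pair was at 0 in replicate 1. Hist1h2ae was 11.7-fold and 13.8-fold above Hist1h2bg across the 175 nt shown above for Hist1h2ae. In the opposite sense, Hist1h2ac stood at 18.52 and 10.82 TPM beside 151.18 and 132.39 for Hist1h2bc, 250 nt away. Hist1h2ak was 5.28-fold and 5.52-fold above Hist1h2bn, and Hist2h2ac 4.96-fold and 5.37-fold above Hist2h2be. The last holds in TPM only: with models of 520 nt and 2620 nt, Hist2h2ac had 410.90 and 311.30 counts and Hist2h2be more, 496 and 347. Levels on the sides of a pair differed severalfold in TPM in either direction, and the ratios of Hist1h2ae, Hist1h2ak and Hist2h2ac to their partners were close between the pups. Hist1h2ap faced Hist1h2br, which stood at 2.06 and 0.06 TPM.

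**Figure D3:**
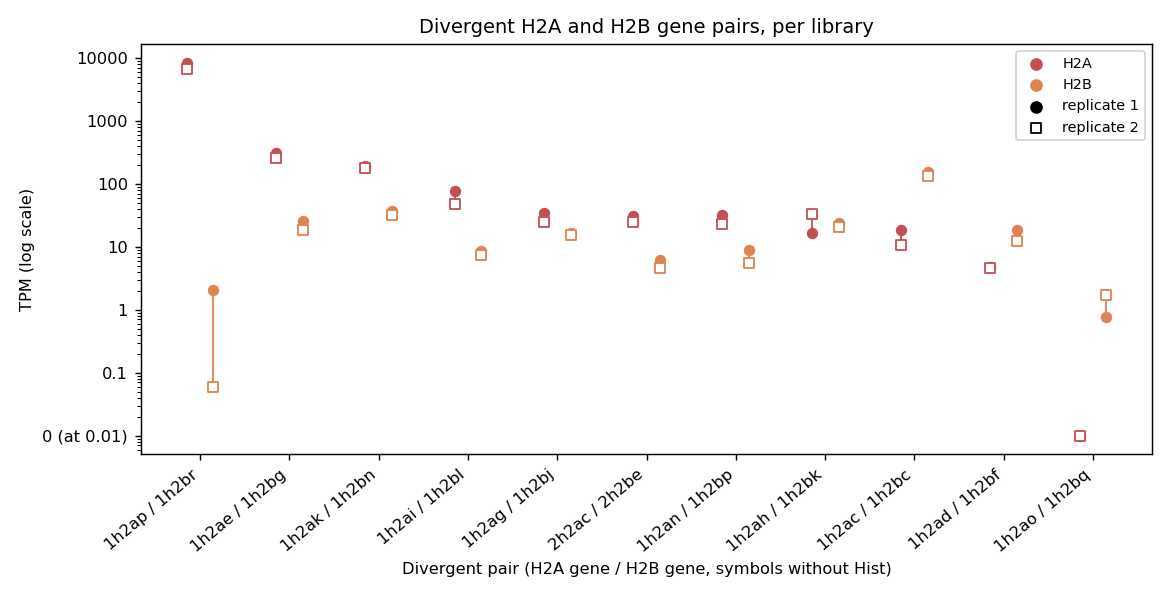
TPM on a log scale (vertical axis) of the H2A gene and the H2B gene of 11 head-to-head pairs (horizontal axis), with filled circles for replicate 1 and open squares for replicate 2, leaving out the testis pair. The H2A side is higher for Hist1h2ae at 304.06 and 255.76 TPM, and the H2B side is higher for Hist1h2bc at 151.18 and 132.39.

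How far a single gene's value can be trusted was read from the posterior SD. Among the 56 members with a mean count of at least 20, it exceeded 10% of the count in 13, which is 23.2% of them, beside 1.48% of the 13614 protein-coding genes with such counts. The median was 4.63% of the count in members. At a mean count of at least 100 the 5 least certain were Hist1h3h (38.8% of the count), Hist2h3c1 (30.7%), Hist1h2ah (22.9%), Hist1h2an (18.7%) and Hist1h2ag (13.5%). All 5 have between 0 and 23.83% of windows of their own, for example 25 of 312 in Hist1h3h and 0 of 1726 in Hist2h3c1, whose whole model also lies in the transcript Gm20634. At the other end, Hist1h1a, Hist1h1b, Hist2h2be, Hist2h4 and Hist4h4 had a posterior SD of 0. Over the 37 members with unchanged models, the posterior SD fell with the share of unique windows (Spearman's rho -0.62 and Pearson's r -0.32 across genes, which share reads and are not independent). Hist1h2ap lay far off this pattern, at 0.107% of a mean count of 87651.705, by far the largest count among the members.

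**Figure D4:**
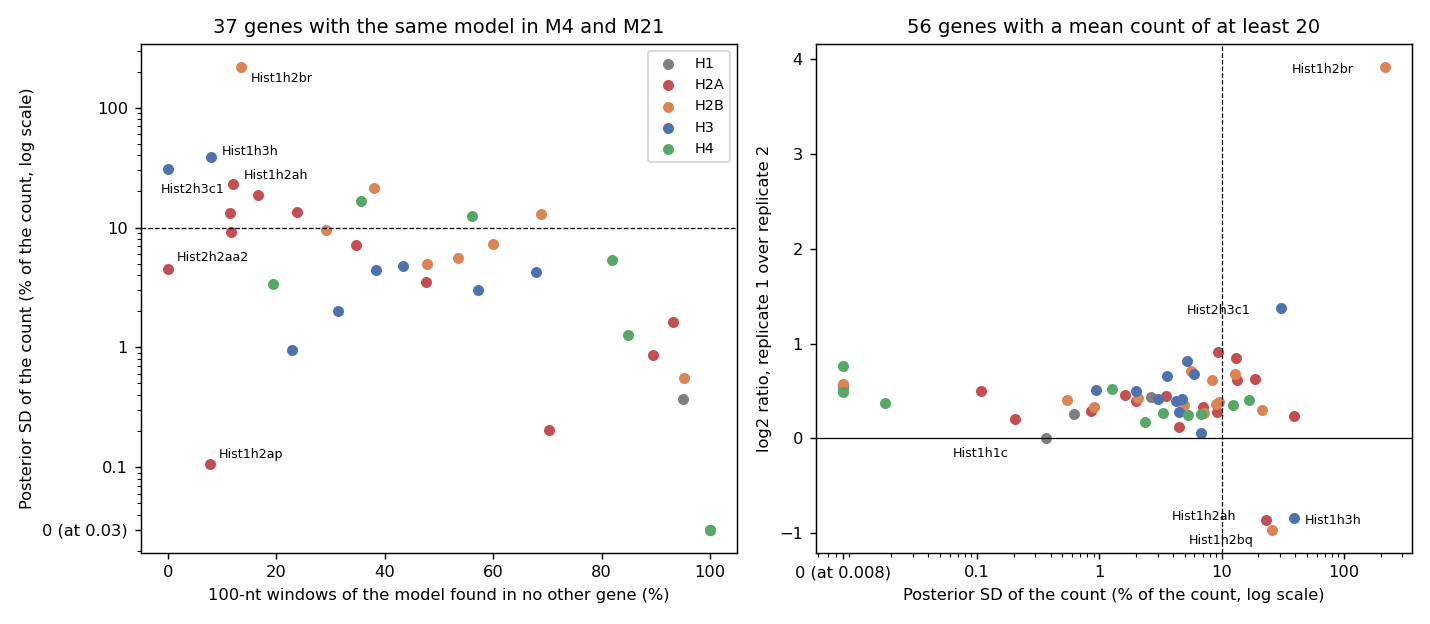
Left, posterior SD as a percent of the count (log scale) against the percent of 100-nt windows found in no other gene, for 37 members with the same model in M4 and M21. Right, log2 ratio of replicate 1 over replicate 2 against the posterior SD (log scale) for 56 members. Hist1h2ap sits at 0.107% with few windows of its own, and the 3 members with negative ratios all lie right of the dashed line at 10%.

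Nearly all members were higher in replicate 1, the spleen of pup 2. After TMM scaling over all Ensembl genes, the median log2 ratio of replicate 1 over replicate 2 was 0.40 in the 56 members tested (quartiles 0.28 and 0.56), beside -0.01 in all 15499 genes (quartiles -0.21 and 0.16). In whole organs fewer cells in S phase and less histone mRNA per such cell cannot be told apart. The ratio was above 0 in 53 of 56 members, which is 94.6% beside 49.1% of all genes. At least 1.5-fold apart were 13 members higher in replicate 1, beside 2.55% of all genes, and 3 higher in replicate 2, beside 4.54% of all genes. With library size in place of TMM, 8 were at least 1.5-fold higher in replicate 1. The medians by type lay close together, at 0.44 in H1 (5 genes), 0.39 in H2A (15), 0.39 in H2B (14), 0.46 in H3 (12) and 0.36 in H4 (10). Hist1h2ap alone was 1.41-fold higher (interval 1.40 to 1.43), and Hist2h4, with no divided reads, had a log2 ratio of 0.49. The intervals cover counting error only, at 95% by the exact Clopper-Pearson method.

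The widest departures from this common ratio were in members with a large posterior SD. Among the 43 members with a posterior SD of up to 10%, as the mean of both libraries, the log2 ratios ran from 0.00 to 0.91, and among the other 13 from -0.96 to 3.91. Of the members with a mean count of at least 100, the largest ratios were those of Hist2h3c1 (1.37), Hist1h2ac (0.91), Hist1h2ai (0.85), Hist1h3f (0.82) and Hist4h4 (0.76). Among these, Hist2h3c1 and Hist1h2ai had a posterior SD over 10% of the count, and Hist4h4, with 349 and 213 counts, had one of 0. Higher in replicate 2 were Hist1h2ah, with 160.35 and 303.43 counts (-0.86), and Hist1h3h, with 83.97 and 158.28 (-0.84). The next lowest, Hist1h1c (0.00), Hist1h3c (0.06) and Hist2h2aa2 (0.12), were near 0, and Hist1h1c is among the best resolved members, with 2426.91 and 2524.86 counts and a posterior SD of 0.37%.

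Sums do not depend on how reads were divided within them, although the Hist1h2a, Hist2h2aa and Hist2h3 genes also share windows with genes outside their sums. Gm20634 holds all 1726 windows of Hist2h3c1, 567 of 921 of Hist2h3c2 and 300 of 389 of Hist2h3b. Gm20634 also holds windows of Hist2h2aa1 and Hist2h2aa2. It took 196.97 and 126.37 counts that are in neither the Hist2h3 nor the Hist2h2aa sum. The ratio of a sum lies within the range of its members by construction, so the values are a description. The 9 Hist1h3 genes ran from -0.84 to 0.82 singly, and their summed counts of 5901.35 and 4379.99 were 1.40-fold higher in replicate 1 (interval 1.35 to 1.46). The Hist2h3 trio ran from 0.28 to 1.37, and its sum of 3824.32 and 2805.11 was 1.42-fold higher (1.35 to 1.49). The 11 Hist1h2a genes other than Hist1h2ap and Hist1h2aa ran from -0.86 to 0.91, and their sum of 8761.36 and 6920.40 was 1.32-fold higher (1.28 to 1.36). The sum of Hist2h2aa1 and Hist2h2aa2 was 1.12-fold higher (1.07 to 1.18), with an interval below those of the other three sums.

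The genes that serve these mRNAs, and the chaperone and assembly genes that handle histone proteins, were for the most part detected. The share over all protein-coding genes was 55.6%. The ratios of these lists leaned the same way as in the members, with smaller medians. Of the 3′ end processing list 18 of 20 genes were detected, led by Snrpg (599.1 ± 66.3 TPM), Snrpe (558.2 ± 42.0) and Snrpb (374.97 and 359.38), which belong to Sm rings. Slbp, the stem-loop binding protein, stood at 379.52 and 306.53 TPM. Zfp473, a zinc finger protein of the U7 complex, stood below 1 TPM at 0.51 and 0.29, and Rnu7, the U7 RNA, which is shorter than the size cut of the preparation, at 0 in both. All 14 matched genes of the decay list were detected, led by the LSm ring genes Lsm7 (176.4 ± 19.0), Lsm4 (160.1 ± 3.94) and Lsm3 (137.8 ± 6.0). All 12 of the transcription list were detected, led by Ccna2, a cyclin A gene (195.8 ± 19.0), Tfdp1, an E2F partner (112.0 ± 0.764), and Ccne1, a cyclin E gene (82.53 ± 12.1). Npat, the coactivator of the histone locus body, stood at 7.09 and 7.86 TPM. All 25 chaperone and assembly genes were detected, led by Npm1 (788.4 ± 32.8), Rbbp4 (281.8 ± 22.7) and Anp32e (213.7 ± 17.9).

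The replication-independent histones are as a rule, though not in every case, made throughout the cell cycle from polyadenylated mRNAs. They were led by H3f3a at 2207.24 and 2049.71 TPM, H2afz at 1633.66 and 1447.31 and H3f3b at 1084.19 and 1063.59. Of their 20 matched genes 12 were detected, beside 55.6% of all protein-coding genes. H2afy3 stood at 0.13 and 0.20 TPM, and the germ-line genes H1foo, H1fnt, H2afb1, H2al1a, Hils1, H2bfm and H2afb3 were listed at 0 TPM in both libraries. Their summed 6407.3 and 6040.0 TPM lay below the 11762.9 and 9404.2 of the replication-dependent genes, but above the 3398.1 and 2877.9 that these held without Hist1h2ap.

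All 30 genes of the S phase list were detected, led by Rrm2 (522.0 ± 117.3 TPM), a ribonucleotide reductase subunit, Pcna (366.7 ± 58.3), the replication clamp, and Tk1 (227.4 ± 18.1). All 30 had a log2 ratio above 0, with a median of 0.33 and a range of 0.08 to 0.61. The medians of the other lists were 0.25 for chaperones (23 of 25 above 0), 0.21 for 3′ end processing (19 of 19 with enough counts), 0.19 for transcription (10 of 12), 0.14 for replication-independent histones (8 of 12) and 0.13 for decay (13 of 14).

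**Figure D5:**
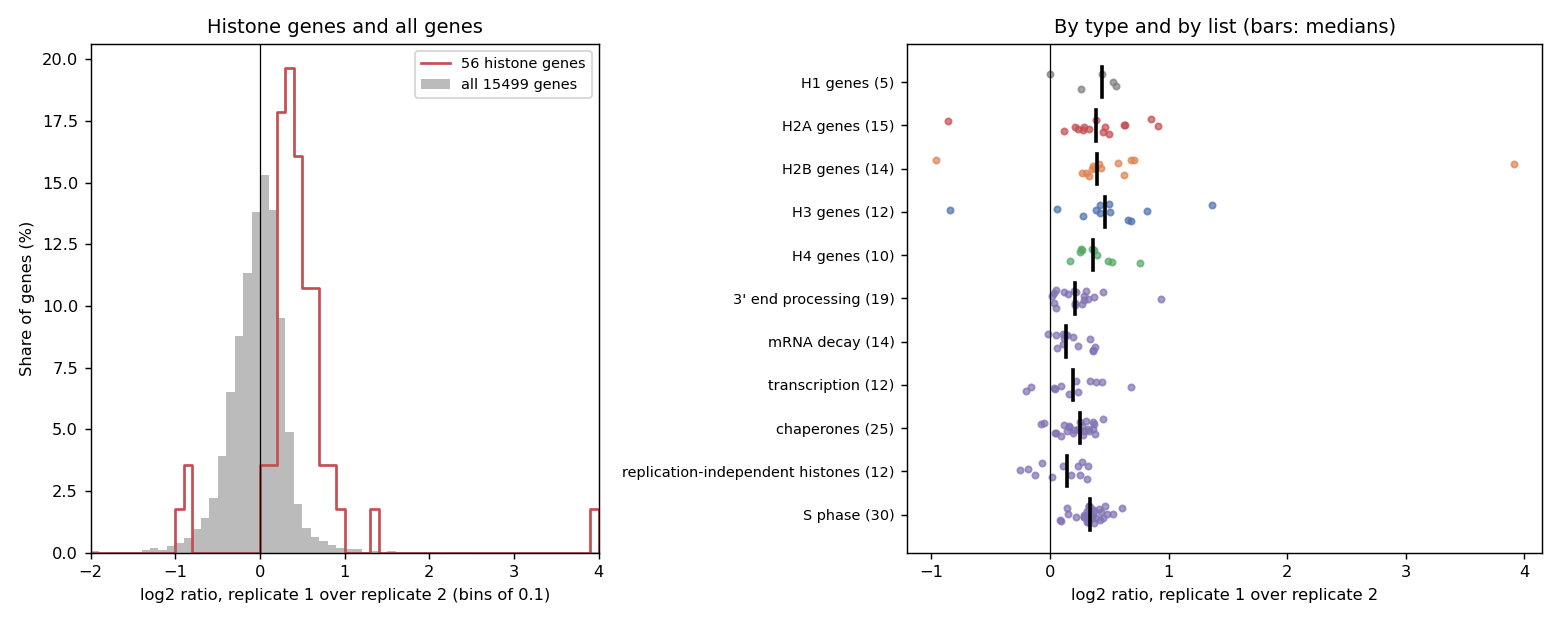
Left, share of genes (vertical axis, percent) by log2 ratio of replicate 1 over replicate 2 (horizontal axis, bins of 0.1, values past an end counted in the end bin) for 56 members and all 15499 genes. Right, the same ratio for each member by type and for each gene of the lists, with bars for medians. The members centre on 0.40 and the S phase list on 0.33.

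The libraries also differed in other respects, and the part of these in the histone ratios was not tested. The pancreas list (26 genes) summed to 1645.0 TPM in replicate 1 and 584.0 in replicate 2, with 21 of 22 countable genes at least 1.5-fold higher in replicate 1. The erythroid list, adult globins included, summed to 280443.3 and 259581.0 TPM, with all 15 genes above 0 on the log2 scale and a median of 0.32. The neutrophil list summed to 14791.0 and 21020.6 TPM, with all 10 genes below 0 and a median of -0.36, and the mast cell list to 807.5 and 1825.4. The B cell list (median -0.34) and the spleen stroma list, with 9 of 9 genes detected (median -0.34), were lower in replicate 1 too.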

How the data were processed

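Both libraries are total RNA of P0 spleen, per the labels' protocols (mirVana, 10 ng of input, spike-ins). The authors deposited gene and transcript tables on mm10 with GENCODE M4 models, per each sample's deposited text listing. Not given in the sources used here were the aligner, the quantifier and any use of strand in counting. The deposited expected counts are estimated counts, in which reads that match several genes are divided. Deposited TPM is a share over all features and uses an effective length, which is the length minus 99 nt in 8435 of 8481 protein-coding genes with 1 transcript. The deposited posterior SD of each count is treated as a signal in counts. The deposited percent of a gene's expression in each transcript was not used for sums.

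Names and coordinates came from GENCODE M21 (GRCm38), which matched 42462 of 43346 genes. Totals were 33122187 and 32162543 counts in replicates 1 and 2. Counts were rounded and scaled by TMM (edgeR 4.0.16, R 4.3.3) for log2 CPM with a prior count of 2, at a mean count of at least 20. DESeq2 1.42.0 gave alternative size factors, and the scaling was tested on simulated data. Exact 100-nt windows, stem-loops (GG, 3 pyrimidines, TT, any 3 bases, A, 3 purines, CC) and coding sequences were read from M21 transcripts, on the sense strand. Of the members, 44 of 64 had the same models in M4 and M21; for the others, levels rest on M4 lengths.

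The members, gene lists and named-gene rule (leaders overall and by type and group, all H1, Hist2, Hist3 and Hist4 genes, zeros, extremes of posterior SD and ratio at a mean count of at least 100, genes next to 1 TPM, the top 3 and those under 1 TPM of each pathway list) were chosen with earlier results of these data known. Marker and S phase lists likewise. Hist1h2bq, Hist1h2br, Hist1h4n and the leading genes of single pairs were named after their values were seen. Intervals and limits cover counting error only, because PCR copies of a molecule were not marked. Nothing but separate pups of 1 litter stands behind n = 2.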

Additional observations from a re-analysis of the deposited data

How the results depend on the processing

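The members' share of all TPM (1.058%) was 1.447% without adult globins and numbered features, 0.4051% as a share of counts, and 0.3138% without Hist1h2ap. As shares of the members' counts, H1 held 4.154%, H2A 75.86%, H2B 3.923%, H3 6.372% and H4 9.692%, and Hist1 89.25%, Hist2 9.255%, Hist3 1.288% and Hist4 0.209%, against 93.80%, 5.817%, 0.3555% and 0.03063% of their TPM. Without Hist1h2ap the type shares were 33.57% for H2A, 29.03% for H4, 21.11% for H3, 9.667% for H2B and 6.622% for H1, and the group shares 79.15%, 19.55%, 1.194% and 0.1034%. H2B held 2.766% over members with a posterior SD under 10% in each library. Of members with a posterior SD over 10% of the count (13), 5 were over 25% and 6 had a mean count of at least 100.

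With deposited TPM the median log2 ratio of members was 0.26, and 0.30 in H1, 0.25 in H2A, 0.25 in H2B, 0.32 in H3 and 0.22 in H4; with library size it was 0.29 in H2A and 0.36 in H3. The median of all genes shifted as well (-0.14 with deposited TPM, -0.11 with library size), and the distance between members and all genes was 0.40 to 0.41 under the 5 scalings compared. Members at least 1.5-fold higher in replicate 1 numbered 13, and 8 with library size, 7 with deposited TPM, 6 with a posterior SD under 10% in each library (7 where the mean of both is at most 10%), and 2 at 2-fold. Those higher in replicate 2 numbered 3, and 0 both with that limit in each library and at 2-fold. With library size the list medians were 0.03 for decay, 0.09 for transcription, 0.14 for chaperones, 0.04 for replication-independent histones and 0.23 for S phase. No paired analysis was possible because there is 1 group. The 1 pup per library, 100-nt windows, models that end at the stop codon and the division of shared reads limit what can be said of a single gene; the other alternatives run moved no share past the spread between libraries, no count by over 1.5 times and no median log2 ratio by more than 0.1.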

Other observations

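A few features outside the rule held histone reads. The H2A pseudogene Hist1h2aj, which shares windows with most Hist1 H2A genes, stood at 42.28 and 32.90 TPM in replicates 1 and 2, above 11 of the H2A members in the means. Hist1h2al, also a pseudogene, stood at 3.45 and 3.67 TPM and Hist3h2bb-ps at 2.19 and 0.62. Gm20634, a transcript that contains all of Hist2h3c1, took 196.97 and 126.37 counts beside 218.60 and 86.84 for Hist2h3c1.

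Of the members, 4 had more than 1 transcript. Hist1h2be was led by a 2099-nt transcript with no annotated coding sequence and no stem-loop match, at 70.9% and 82.1% of the gene's TPM. Hist1h2bp was split between a 469-nt transcript with a stem-loop (67.7% and 40.8%) and a 621-nt transcript without one (32.3% and 59.2%). Hist1h2br had 84.0% of its TPM on a 1256-nt transcript in replicate 1 and 100% on a 2197-nt transcript in replicate 2, from 84.80 and 3.97 counts.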
